A study of Drosophila melanogaster with 3 samples.

Results

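The regions described here are the weak Traffic jam sites of adult female flies: peaks of the pooled list that overlap no region of the thresholded list by 1 bp or more. They number 16253 of 30000 pooled peaks (54.2%). ChIP-seq, the sequencing of chromatin recovered with an antibody, was done on whole adult females of Drosophila melanogaster. All came from 1 transgenic line, the strain labelled tj-GFP, that stably makes the fusion protein tj-eGFP, Traffic jam (tj) with GFP at its C terminus, and the antibody was against GFP. The age of the flies is given as unknown. The 3 biological replicates form 1 group, each from this same line, with no second genotype, treatment or time to compare. Each replicate list and the pooled list held 30000 peaks, made relaxed on purpose so that they include background, and the thresholded list held 10688. Read depth is unknown, and peak signal, an enrichment value from the caller, has no stated unit. Flies without the tag were not analysed here.

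Traffic jam belongs to the large Maf family of transcription factors, which bind DNA through a basic leucine zipper (bZIP). It is known for its role in the somatic cells of the gonad, where it governs cell adhesion and piRNA pathway genes, and it is also made in some neurons. Large Maf proteins bind a palindromic element whose half-site core is TGCTGAC. Irreproducible discovery rate (IDR) analysis compares how peaks rank in replicate lists and keeps those whose ranks are reproducible. The relaxed lists given to it hold weak binding and noise together. In whole flies, binding in few cells and weak binding in many cells cannot be told apart.

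Sequences around the summits of well-supported weak sites, 5′ to 3′ on the plus strand of dm6, are shown first, so that the values below can be read beside them. The first set holds sites of each main position class with a summit in all 3 replicate lists and no Maf core in the window, centred on the summit. The promoter site of nsl1, which encodes a subunit of the NSL chromatin complex, and the intronic site of bmm, the lipase gene brummer, have the highest mean replicate signal of their classes among the sites eligible for printing whose window holds no UTR base and whose replicate summits lie outside every IDR region. This restriction was added after values were seen. The intergenic sites are named by their nearest coding gene, CG9400 and the Toll-family receptor gene Tollo.
nsl1, promoter, chr3R:15793586-15793686: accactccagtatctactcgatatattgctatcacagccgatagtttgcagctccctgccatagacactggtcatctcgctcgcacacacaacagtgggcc
bmm, intron, chr3L:14785676-14785776: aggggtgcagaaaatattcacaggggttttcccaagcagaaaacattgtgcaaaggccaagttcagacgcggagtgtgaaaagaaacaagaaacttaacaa
CG9400, intergenic, chrX:14291324-14291424: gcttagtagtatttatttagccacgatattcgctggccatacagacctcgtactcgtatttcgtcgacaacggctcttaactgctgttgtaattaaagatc
Tollo, intergenic, chr3L:15258282-15258382: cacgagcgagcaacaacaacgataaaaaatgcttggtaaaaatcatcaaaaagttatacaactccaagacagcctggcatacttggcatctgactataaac

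The second set shows weak sites that do hold the Maf core, marked in capitals (GTCAGCA is its reverse complement), because the core is the sequence that large Maf factors are known to read. That of Pdp1, a bZIP gene of the circadian clock, is intronic. The site assigned by distance to Su(H), the DNA-binding factor of the Notch pathway, is nearest the start of CIAPIN1. There the core runs into the AP-1 element TGANTCA, also in capitals. The last lies in the intergenic cluster downstream of tj itself. The Su(H) and tj-cluster windows were added after values were seen.
Pdp1, chr3L:7861400-7861500: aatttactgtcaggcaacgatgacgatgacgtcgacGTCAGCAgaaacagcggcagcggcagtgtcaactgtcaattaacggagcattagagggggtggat
Su(H) and CIAPIN1, chr2L:15038506-15038706: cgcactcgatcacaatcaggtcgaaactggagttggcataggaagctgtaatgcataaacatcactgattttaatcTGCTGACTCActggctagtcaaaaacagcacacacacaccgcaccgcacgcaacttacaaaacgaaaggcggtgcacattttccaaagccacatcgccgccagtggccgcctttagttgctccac
tj cluster, chr2L:19475665-19475865: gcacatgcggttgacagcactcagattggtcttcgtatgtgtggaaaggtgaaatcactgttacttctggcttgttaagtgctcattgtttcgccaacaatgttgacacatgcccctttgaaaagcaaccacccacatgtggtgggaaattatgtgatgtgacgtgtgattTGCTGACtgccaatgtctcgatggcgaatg

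The weak sites were selected on pooled signal, in effect. All 10688 IDR peaks were found unchanged in the pooled list, and they were its 10688 strongest peaks. The weakest of them had a pooled signal of 215.6 and the strongest weak site 215.5. Signal at weak sites ran from 46.4 to 215.5 with a median of 81.6, against a median of 454.5 at IDR peaks. A further 3059 pooled peaks lay under 215.6 but overlapped an IDR region, and so are not among the weak sites. The deposited q-value was under 0.05 at 6872 weak sites (42.3%). It reached the ceiling of the −log10 scale, 4.37, at 745 (4.58%), as it did at every IDR peak. Of the weak sites, 98.3% were exactly 504 bp wide, against 35.5% of IDR peaks.

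Values on either side of the threshold are given as a description. The 5 strongest weak sites were at the promoters of CG14232 and CG6701 and in introns of Sema1b, which encodes a semaphorin, mub and Smr, a nuclear receptor corepressor gene, with pooled signals of 215.3 to 215.5. The 5 weakest IDR peaks, in introns of l(3)neo38, fru, ana and the non-coding gene lncRNA:CR32773 and at the promoter of sick, had 215.6 to 215.8. The 1000 strongest weak sites had a summit in all 3 replicate lists in 90.5% of cases, against 91.3% of the 1000 weakest IDR peaks. Promoters held 42.7% of the former and 48.4% of the latter, and the Maf core was within 100 bp of 3.7% and 4.6%. For those in all 3 lists, mean replicate signal, relative to typical IDR peaks as defined below, had medians of 0.396 and 0.468.

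Most weak sites had a partner in at least 1 replicate list. A summit lay within 200 bp in all 3 lists at 6708 weak sites (41.3%, 95% Wilson interval 40.5 to 42.0%), beside 63.3% of all pooled peaks and 96.0% of IDR peaks. Another 5983 (36.8%) had a summit in 2 lists, 3148 (19.4%) in 1 and 414 (2.55%) in none. The intervals cover counting error only, and the pooled list was itself made from these replicates, so a match is partly built in. For scale, 5.45% ± 0.222 (SD, n = 3) of the bases outside IDR regions lay within 200 bp of a replicate summit, 2.00% were so in all 3 lists and 90.2% in none.

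No replicate carried the weak sites alone. Summits of replicate 1 were found at 69.2% of them, of replicate 2 at 75.5% and of replicate 3 at 72.1% (mean 72.3% ± 3.12, SD, n = 3). Sites found in 2 lists numbered 1996 when replicate 3 was the one without, 1802 when it was replicate 2 and 2185 when it was replicate 1. Sites found in a single list numbered 746, 1377 and 1025 for replicates 1, 2 and 3, with replicate 2 the highest. Counting only replicate summits outside every IDR region, an alternative added after values were seen, the share in all 3 lists was 41.0%.

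Support was lower at weaker signal. In 4 equal strength classes of the weak sites, from strong to weak, a summit in all 3 lists was found at 83.7%, 55.4%, 20.8% and 5.24%, and a summit in none at 0.0246%, 0.148%, 1.35% and 8.66%. The share with a q-value under 0.05 was 100%, 69.1%, 0% and 0%. Along the ranking of all pooled peaks the all-3 share went from 90.9% in ranks 10001 to 11000 to 5.9% in ranks 29001 to 30000, with no step at the end of the IDR list.

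**Figure D1:**
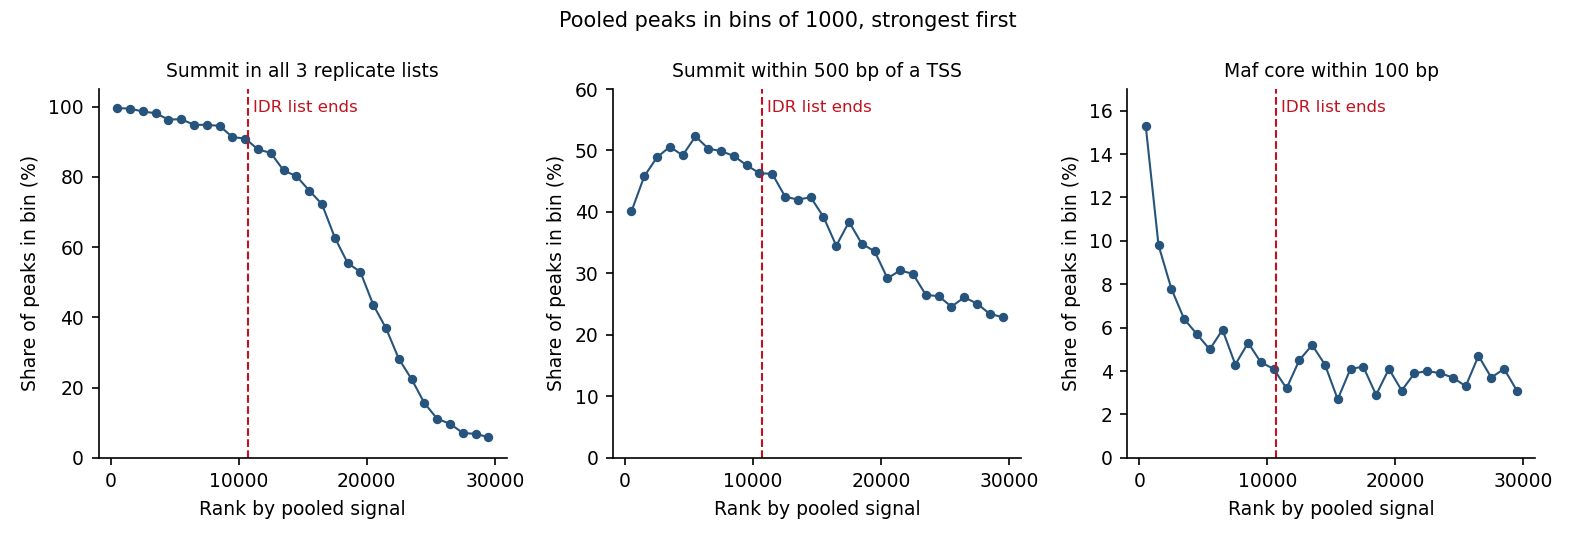
Pooled peaks in bins of 1000 by rank of pooled signal (x axis), with the share in each bin (y axis, %) that has a summit in all 3 replicate lists, lies within 500 bp of a TSS or holds the Maf core; the dashed line marks the end of the IDR list at rank 10688. The first share falls from 99.6% to 5.9%, the promoter share from a highest 52.3% to 22.9%, and the core share falls from 15.3% to 4.1% in the bin where the IDR list ends, and is 3.1% in the last bin.

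Replicate signal is given relative to each replicate's median at IDR peaks matched in every replicate list, which number 10265 (113.6, 242.1 and 160.6 in replicates 1, 2 and 3), so that 1 is a typical IDR peak. At the 6708 weak sites found in all 3 lists the mean relative signal had a median of 0.260 and ran from 0.111 to 0.818. It was at or above 0.5 at 30 of them, against 9345 of the 10265 IDR peaks, and at or above 1 at 0. The lowest mean at an IDR peak was 0.298, so the ranges overlap. Replicates ranked weak sites less alike: across sites, which are not independent, Spearman's rho between pairs of replicates was 0.348 to 0.382, against 0.785 to 0.791 at IDR peaks. These sites span a far narrower range of signal. Over the 3 replicates, the SD of log2 relative signal had a median of 0.40 at weak sites and 0.30 at IDR peaks. The IDR peaks were drawn from these same lists and were the strongest pooled peaks, so the contrasts in rho and SD are partly built in.

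The highest replicate signals belonged to sites beside IDR regions. Among the 10 highest by mean relative signal, the sites at Pdi, ACC, aus, fru and fray had no replicate summit of their own outside an IDR region, and lay 35 to 139 bp from one. Pdi encodes a protein disulfide isomerase and ACC the first enzyme of fatty acid synthesis, and at Pdi the values were 0.958, 1.26 and 0.232 in replicates 1, 2 and 3. At ACC they were 0.155, 1.82 and 0.337, high in replicate 2 alone. Among sites with their own summits, Ubi-p63E, a polyubiquitin gene, came first at 0.552, 0.72 and 0.546 (mean 0.606 ± 0.0989, SD, n = 3), 5 bp from its TSS and 328 bp from an IDR region. The intronic site of bmm followed with 0.93, 0.449 and 0.352, highest in replicate 1 and lower in the other replicates. The promoter site of nsl1 gave 0.758, 0.15 and 0.677, low in replicate 2 alone.

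Weak sites lay mostly in introns and at promoters. Introns held 7693 (47.3%) and sequence within 500 bp of a TSS 4848 (29.8%, Wilson interval 29.1 to 30.5%), beside 38.3% of all pooled peaks and 48.3% of IDR peaks at promoters. Intergenic sequence held 1966 (12.1%), coding sequence 774 (4.76%), 3′ UTRs 639 (3.93%), 5′ UTRs beyond the promoter window 182 (1.12%) and exons of non-coding genes 151 (0.929%). Of the bases of the 6 main chromosome arms, 13.6% were promoter, 39.5% intron, 27.2% intergenic and 13.7% coding sequence. The promoter share of weak sites was thus below that of IDR peaks and above that of the arms.

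Position differed along the range of signal. The promoter share over the 4 strength classes, strong to weak, was 39.6%, 31.6%, 25.6% and 22.5%. Coding sequence held 1.26%, 2.83%, 5.46% and 9.50%, against 13.7% of the arms. The intron share stayed between 44.1% and 49.3%. Sites with no replicate summit had 11.4% in coding sequence and 27.8% at promoters (n = 414).

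**Figure D2:**
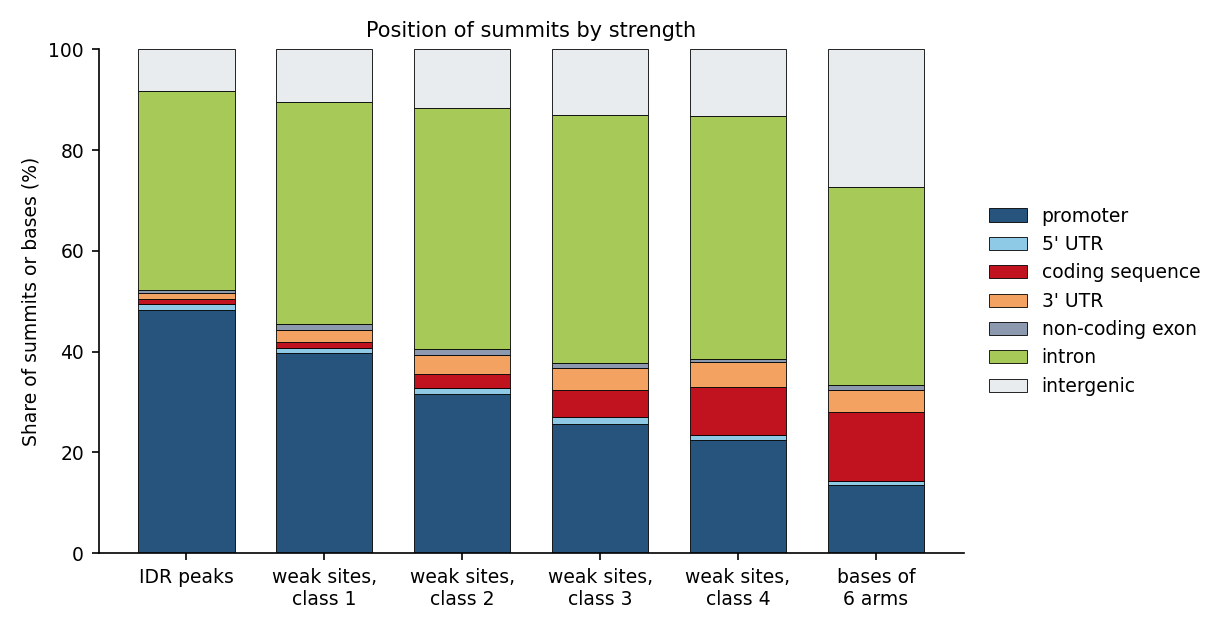
Stacked bars of the share (y axis, %) of summits in each position class for the IDR peaks, for the weak sites in 4 equal strength classes from strongest (1) to weakest (4), and for the bases of the 6 arms. Promoter summits shrink from 48.3% at IDR peaks to 22.5% in the weakest class while coding sequence widens from 0.936% to 9.50%.

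The replicate lists allowed this contrast to be set against replicate spread. Of each replicate's own peaks outside IDR regions, 26.7%, 30.5% and 28.4% were at promoters in replicates 1, 2 and 3, against 47.8%, 48.2% and 47.6% of those overlapping an IDR region. The groups did not overlap, and the difference was −19.3 percentage points ± 1.68 (SD, n = 3), lower outside in 3 of 3 replicates. A two-sided exact permutation test by sign flips gave p = 0.25, the smallest that 3 replicates allow, so this design cannot pass 0.05. Coding sequence held 6.07% ± 2.67 outside and 0.995% ± 0.0315 inside, higher outside in 3 of 3 (exact permutation p = 0.25). Replicate 3 was highest at 9.04%, and its peaks outside IDR regions also had the highest median GC content, 43.3%. The part of base composition in that share was not tested. The IDR regions were drawn from these same lists, so the contrast is not independent of them. In all, 5 shares were compared in this way, each with an exact permutation p = 0.25, which no adjustment over the 5 can lower.

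Weak sites lay at a wide range of distances from IDR regions, and often beside one another. The median distance from a summit to the nearest IDR region was 2955 bp (quartiles 1303 and 8008 bp), and 17.3% lay within 1000 bp. Another weak summit lay within 1000 bp of 53.4% of them, so neighbouring members can share a broad stretch of signal. Distance to the nearest TSS had a median of 1512 bp, against 561 bp for IDR peaks. Along the chromosomes weak sites numbered 121.4 per Mb over the 6 arms, 136.1 per Mb on X (1.12 times that figure) and 58.6 per Mb on the small chromosome 4 (0.483 times, 79 sites). IDR peaks stood at 1.15 times on X and 0.334 times on 4.

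The Maf core was more frequent at weak sites than beside them, outside promoters. TGCTGAC, on either strand, was within 100 bp of the summit at 661 weak sites (4.07%, Wilson interval 3.77 to 4.38%). Windows centred 1000 bp to either side held it in 2.66%, all 201-bp windows tiled over the arms in 2.61%, windows on TSSs in 2.36% and IDR peaks in 6.84%. In introns the share was 4.36% against 2.53% in the flanks, and in intergenic sequence 6.10% (5.13 to 7.25%) against 2.85%. At promoter weak sites it was 2.54% (2.13 to 3.02%), beside 2.77% in their flanks and 4.80% at promoter IDR peaks. Outside promoters it went from 5.59% in the strongest class to 4.96%, 4.40% and 4.13%, with flanks at 2.46% to 2.75%. These are descriptions of summit sequence: a match is not shown to be a site that Traffic jam uses.

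**Figure D3:**
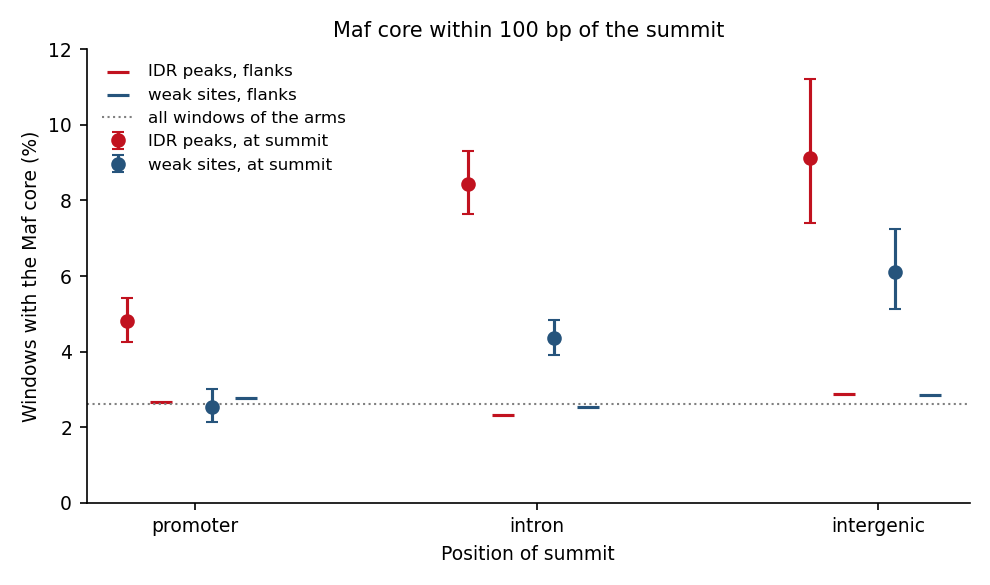
Share of 201-bp windows (y axis, %) that hold the Maf core, for summits at promoters, in introns and in intergenic sequence; points with 95% Wilson bars are summits, dashes are the windows 1000 bp to either side, and the dotted line is the 2.61% of all windows of the arms. Weak sites stand above their flanks in introns and intergenic sequence (4.36% and 6.10%) and not at promoters (2.54%).

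Elements of general promoter factors followed position. At promoter weak sites the DREF element TATCGATA was in 4.33% of windows and the M1BP element GTCACACT in 2.97%, against 0.650% and 0.516% in their flanks and 5.45% and 4.10% of all TSS windows. In introns they were in 0.416% and 0.442%, beside 0.578% and 0.461% in the flanks. GAGAGAG, read by GAGA factor, was in 5.71% of promoter and 4.26% of intronic windows, against 2.64% and 3.52% in the flanks. The AP-1 element TGANTCA, read by other bZIP factors, was in 5.33% of all weak sites against 4.92% in the flanks, and the forkhead element TGTTTAC in 6.19% against 4.42%. Of all TSS windows, 4.40% held GAGAGAG, 3.91% TGANTCA and 5.86% TGTTTAC. At promoter weak sites TGTTTAC was in 6.79% of windows, and at promoter IDR peaks GAGAGAG was in 7.09%. Each motif was searched on both strands, and TGANTCA can overlap TGCTGAC, as at Su(H).

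Weak sites reached many genes that IDR peaks do not. Of 13945 protein-coding genes, 4604 (33.0%) had a weak summit within 1000 bp of a TSS and 5073 (36.4%) an IDR summit, with 1445 genes in both. Of all coding genes, 3159 (22.7%) had a weak site and no IDR summit, and at 1716 (12.3%) that weak site was in all 3 replicate lists. Of the 8872 genes with no IDR summit, 35.6% had a weak site. A summit can serve neighbouring genes that share a promoter region. Gene lists are described below by counts beside these figures, with no test.

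Regulators of the gonad soma, the cells in which Traffic jam is best known, numbered 28, of which 18 had an IDR summit and 7 a weak site alone (beside 22.7% of all coding genes), 5 of them in all 3 lists. The members were exd, bab2, ptc, hth and zfh1 in all 3 lists, and chinmo and lin-28 in fewer. At exd, which encodes a homeodomain cofactor of Hox proteins, relative signals were 0.428, 0.359 and 0.415 in replicates 1, 2 and 3 (mean 0.401 ± 0.0365, SD, n = 3; chrX:15991706-15992209), with the summit 16 bp from the start of eIF5. At bab2, a BTB factor gene needed to form the ovarian terminal filaments, they were 0.352, 0.25 and 0.371 (mean 0.324 ± 0.0653), 34 bp from its TSS. At ptc, the Hedgehog receptor gene, they were 0.228, 0.308 and 0.359 (mean 0.298 ± 0.0663), 9 bp from its TSS. All these values lay well under a typical IDR peak, which the selection on pooled signal in large part builds in.

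Genes of the piRNA pathway, which silences transposons, had weak sites in both the soma and the germline lists. Of 15 somatic piRNA genes 8 had an IDR summit and 4 a weak site alone, and of 17 germline piRNA genes 7 and 1. This difference was not tested. The summit at egg, which encodes the histone methyltransferase Eggless, was also assigned by distance to the cuticle gene Lcp9. At egg relative signals were 0.538, 0.231 and 0.45 (chr2R:24779593-24780096), lowest in replicate 2. At zuc, the nuclease that makes piRNA 5′ ends, they were 0.256, 0.284 and 0.154, at a summit nearer the start of escl. Weak sites at arx, in the list of replicate 3 alone, and at Hen1, the piRNA methyltransferase gene, completed the somatic 4.

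Germline genes had a weak site alone at 7 of 16 (43.8%, beside 22.7%), 6 of them in all 3 lists: bam, bgcn, grk, otu, ovo and vas. The seventh, osk, had fewer. At bgcn, partner of the differentiation factor Bam, relative signals were 0.618, 0.324 and 0.348 (mean 0.43 ± 0.163; chr2R:23858563-23859066), highest in replicate 1. At bam itself they were 0.31, 0.142 and 0.313, with an intergenic summit 668 bp from the TSS. At ovo, a germline zinc finger gene, they were 0.286, 0.268 and 0.186, and at vas, the germline RNA helicase gene, 0.38, 0.12 and 0.235. Replicate 2 was the lowest of the 3 at bgcn, bam and vas but not at ovo.

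Among adhesion and polarity genes, 11 of 18 had an IDR summit and 4 a weak site alone. At arm, the β-catenin gene, relative signals were 0.601, 0.199 and 0.26 (mean 0.353 ± 0.217), high in replicate 1 alone. At CadN, the N-cadherin gene, the promoter site gave 0.407, 0.194 and 0.372 (mean 0.324 ± 0.115; chr2L:17778130-17778633), 42 bp from a TSS. At baz, which encodes the polarity protein Par-3, they were 0.353, 0.431 and 0.134, low in replicate 3, and p120ctn had a site in fewer lists. Of 17 basement membrane and integrin genes 15 had an IDR summit. The other 2 both had weak sites: Mmp1, a matrix metalloproteinase gene (0.183, 0.287 and 0.243), and Ndg, the nidogen gene, with a summit in replicates 1 and 3.

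Signalling genes with a weak site alone included ligands, receptors and transducers. In the Notch pathway (3 of 16) they were N, the receptor gene, at 0.522, 0.376 and 0.307 (mean 0.402 ± 0.11; chrX:3134647-3135150), Su(H) at 0.283, 0.102 and 0.385 and the target gene E(spl)m7-HLH at 0.179, 0.323 and 0.232. In the EGFR pathway (3 of 17, with 13 at IDR summits) all were genes of ligands or of ligand processing. At rho, the protease that frees the ligand Spitz, values were 0.421, 0.443 and 0.443 (mean 0.436 ± 0.0128; chr3L:1463605-1464108), nearly equal between replicates. The neuregulin-like ligand gene vn gave 0.258, 0.359 and 0.317 and the oocyte ligand gene grk 0.197, 0.195 and 0.304. The sites of N and rho were thus the stronger of these.

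Hedgehog genes had a weak site alone at 5 of 13 (38.5%), of which 4 were in all 3 lists. Besides ptc they were disp, which releases the ligand, at 0.522, 0.301 and 0.34, Su(fu), an inhibitor of Ci, at 0.144, 0.318 and 0.281, rasp and, in fewer lists, ihog. The summits of disp and Su(fu) were nearest the starts of ECSIT and Arp1. Wnt genes had 5 of 17, with Wnt6 in all 3 lists and fz in fewer. At dsh, the cytoplasmic transducer gene, values were 0.286, 0.37 and 0.405, at Notum, a secreted inhibitor of Wnt, 0.3, 0.387 and 0.361, and at the ligand gene Wnt5 0.405, 0.337 and 0.286. At these 3 genes the replicates lay close together. In JAK/STAT the ligand genes upd3 (0.32, 0.151 and 0.214) and upd1, found in replicates 2 and 3, were the 2 of 11, and in the Dpp pathway the ligand gene gbb was the 1 of 15.

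Ecdysone genes had an IDR summit at 14 of 18 and a weak site alone at 3, all nuclear receptor genes. At Hr38 relative signals were 0.314, 0.324 and 0.33 (mean 0.323 ± 0.00808; chr2L:20714473-20714976), the closest values of the 3. At Hr4 they were 0.27, 0.335 and 0.248 and at Eip78C 0.202, 0.435 and 0.207, where replicate 2 stood above the other replicates. The bZIP list, which holds factors of the same class as Traffic jam, numbered 17, of which 15 had an IDR summit, and Atf-2, a stress-responsive factor gene, had a weak site of 0.507, 0.195 and 0.304.

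**Figure D4:**
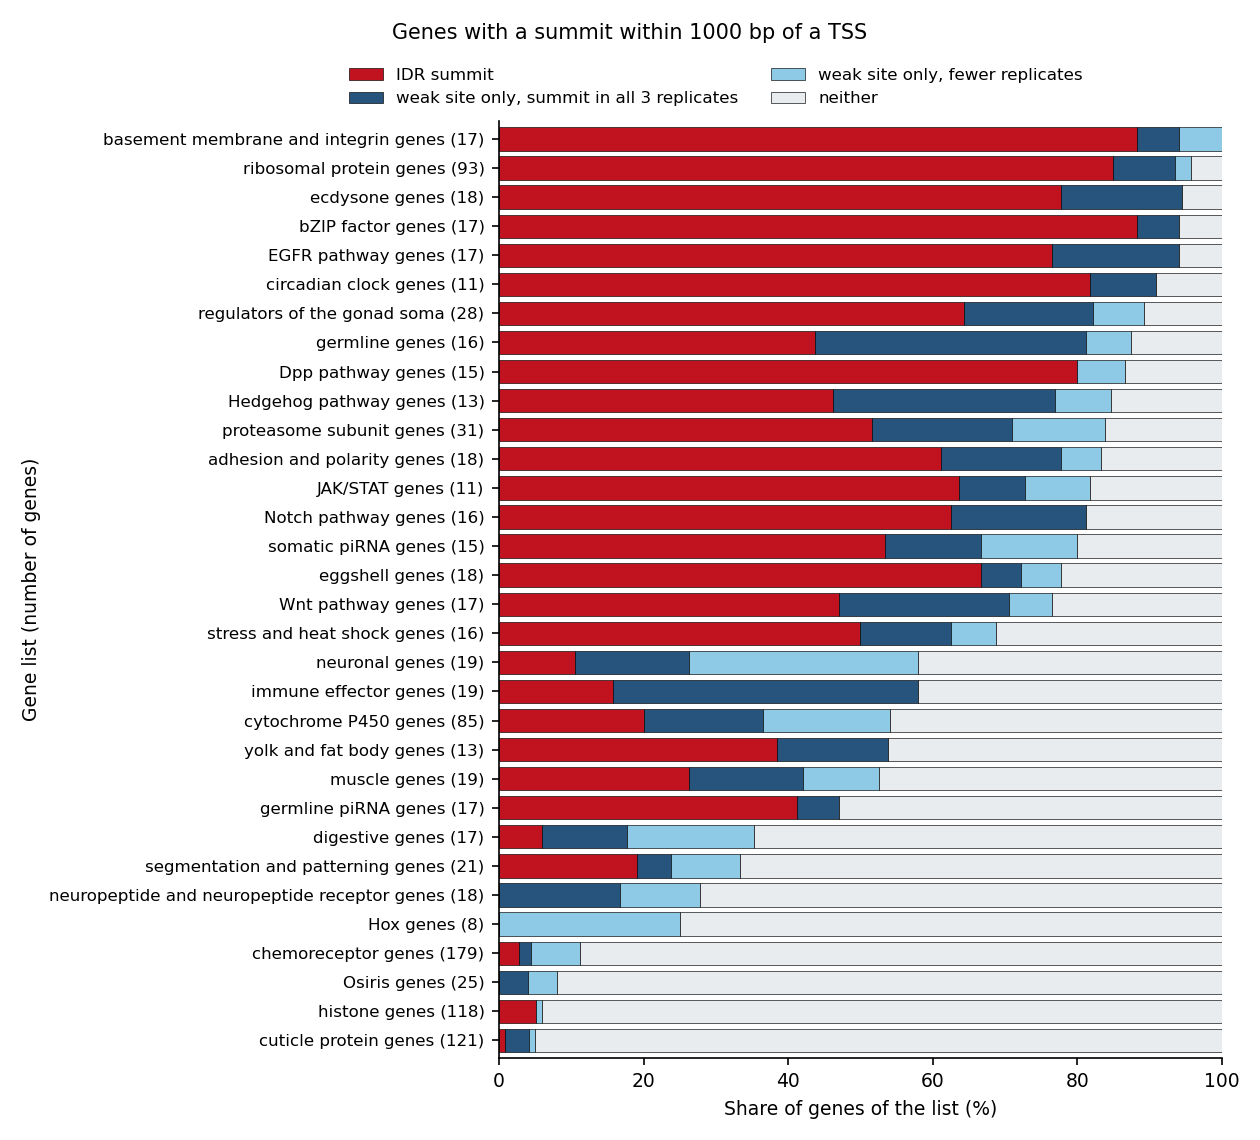
For each gene list (y axis, with its number of genes), the share (x axis, %) with an IDR summit within 1000 bp of a TSS, with a weak site alone in all 3 replicate lists, with a weak site alone in fewer, and with neither. Germline, neuronal and immune effector genes show 43.8%, 47.4% and 42.1% at weak sites alone, beside 22.7% of all coding genes.

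The neuronal and neuropeptide lists had few IDR summits, and weak sites reached some of their genes. Neuronal genes had 2 IDR summits in 19 and a weak site alone at 9 (47.4%), but only 3 of the 9 in all 3 lists, Ace, para and nSyb. At Ace, the acetylcholinesterase gene, relative signals were 0.339, 0.373 and 0.453 (mean 0.388 ± 0.0584), with the summit nearest CG11686, while the sodium channel gene para gave 0.151, 0.189 and 0.163 and the synaptobrevin gene nSyb 0.134, 0.204 and 0.123. The means of the last pair, 0.168 and 0.154, were below 0.260, the median of mean relative signal at weak sites in all 3 lists. Of 18 neuropeptide and neuropeptide receptor genes none had an IDR summit (beside 36.4% of all coding genes) and 5 had a weak site: amn (0.3, 0.238 and 0.526), Dh44, Pdfr, AkhR and Lk.

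The immune effector list had an IDR summit at 3 of 19 genes, the transcription factor genes Dif, Rel and dl. No antimicrobial peptide or peptidoglycan recognition gene of the list had one. A weak site alone was at 8 (42.1%), all 8 in all 3 lists, beside 12.3% of all coding genes. These 8 were the antimicrobial peptide genes AttA, AttB, AttD, CecB, Def and Dro and the peptidoglycan recognition genes PGRP-SA and PGRP-SD. At PGRP-SA relative signals were 0.246, 0.446 and 0.44 (mean 0.377 ± 0.114; chrX:11561419-11561922), lowest in replicate 1. At CecB they were 0.283, 0.277 and 0.46, from an intergenic summit 846 bp from the TSS, and at PGRP-SD 0.193, 0.163 and 0.239. The summit valued for PGRP-SD was nearest the start of CG32373, 27 bp away. Within 1000 bp of the TSSs of these 8 genes lay 14 distinct weak sites.

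IDR summits were at 5 of 19 muscle genes, 1 of 17 digestive genes and 5 of 13 yolk and fat body genes. Muscle genes had 5 of 19 with a weak site alone, led by the titin-like gene sls (0.298, 0.278 and 0.49). After it came the troponin T gene up (0.167, 0.156 and 0.214), the flight muscle actin gene Act88F (0.118, 0.146 and 0.206), wupA and Prm. Digestive genes had a weak site alone at 5 of 17, led by the maltase genes Mal-A1 (0.145, 0.309 and 0.176) and Mal-A6. In yolk and fat body genes, weak sites alone were at the lipoprotein gene apolpp, on chromosome 4, at 0.297, 0.403 and 0.317 (chr4:1064255-1064758), and at Apoltp (0.211, 0.159 and 0.312). Eggshell genes had an IDR summit at 12 of 18 and a weak site alone at Cp7Fc (0.411, 0.341 and 0.312) and Cp36, with summits in 3 and 2 lists. The sites of sls, Cp7Fc and apolpp had higher means than the other sites valued here, and those of up and Act88F lay near the bottom of the range.

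Among housekeeping lists, ribosomal protein genes had an IDR summit at 79 of 93 and a weak site alone at 10, of which 8 were in all 3 lists. RpL10 gave the highest mean of the sites named for the lists, 0.689, 0.387 and 0.398 (mean 0.491 ± 0.172; chr3L:23095315-23095818), with replicate 1 above the other replicates, and lay 150031 bp from the nearest IDR region. RpS13 followed at 0.56, 0.37 and 0.321. Proteasome subunit genes had 16 IDR summits in 31 and 10 weak sites alone (32.3%), led by Prosalpha2 (0.348, 0.484 and 0.246), Prosalpha3 (0.421, 0.295 and 0.306) and Rpt2 (0.267, 0.317 and 0.248). The site of Prosalpha3 held the DREF element. Stress and heat shock genes had 3 of 16: Hsp23 (0.153, 0.329 and 0.167), Hsp70Ab and Hsp67Bc. Hsp70Ab is a member of a family of near-identical copies, so its value of 0.124, 0.127 and 0.132 is uncertain. Of 11 circadian clock genes 9 had an IDR summit and 1, the receptor gene Pdfr, a weak site alone.

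Most genes of the chemoreceptor, cuticle, histone and Osiris families had neither kind of peak. Of the cytochrome P450 genes, 29 of 85 (34.1%) had a weak site alone and 17 an IDR summit. At Cyp317a1 relative signals were 0.28, 0.468 and 0.525 (mean 0.424 ± 0.128), at Cyp6a13 0.482, 0.308 and 0.4 and at Cyp6a2, a gene linked to insecticide resistance, 0.287, 0.413 and 0.336. The summit of Cyp6a13 held the Maf core. Chemoreceptor genes had a weak site alone at 15 of 179 (8.38%), the strongest at Gr39a, a gustatory receptor gene (0.51, 0.532 and 0.318; chr2L:21290493-21290996), and Ir75b (0.367, 0.444 and 0.375). Cuticle protein genes had 5 of 121, histone genes 1 of 118, at His3.3A, and Osiris genes 2 of 25, Osi2 and Osi4. Most histone genes are near-identical tandem repeats, so their counts are uncertain.

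Hox and segmentation genes were also mostly without peaks. No Hox gene of 8 had an IDR summit, and the 2 weak sites, at Abd-B and Antp, were found in replicate 3 alone and in no replicate list. Of 21 segmentation and patterning genes 4 had an IDR summit and 3 a weak site alone. The site of en gave 0.266, 0.225 and 0.124, 7 bp from its TSS. Those of hb and inv were in 2 lists and 1.

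**Figure D5:**
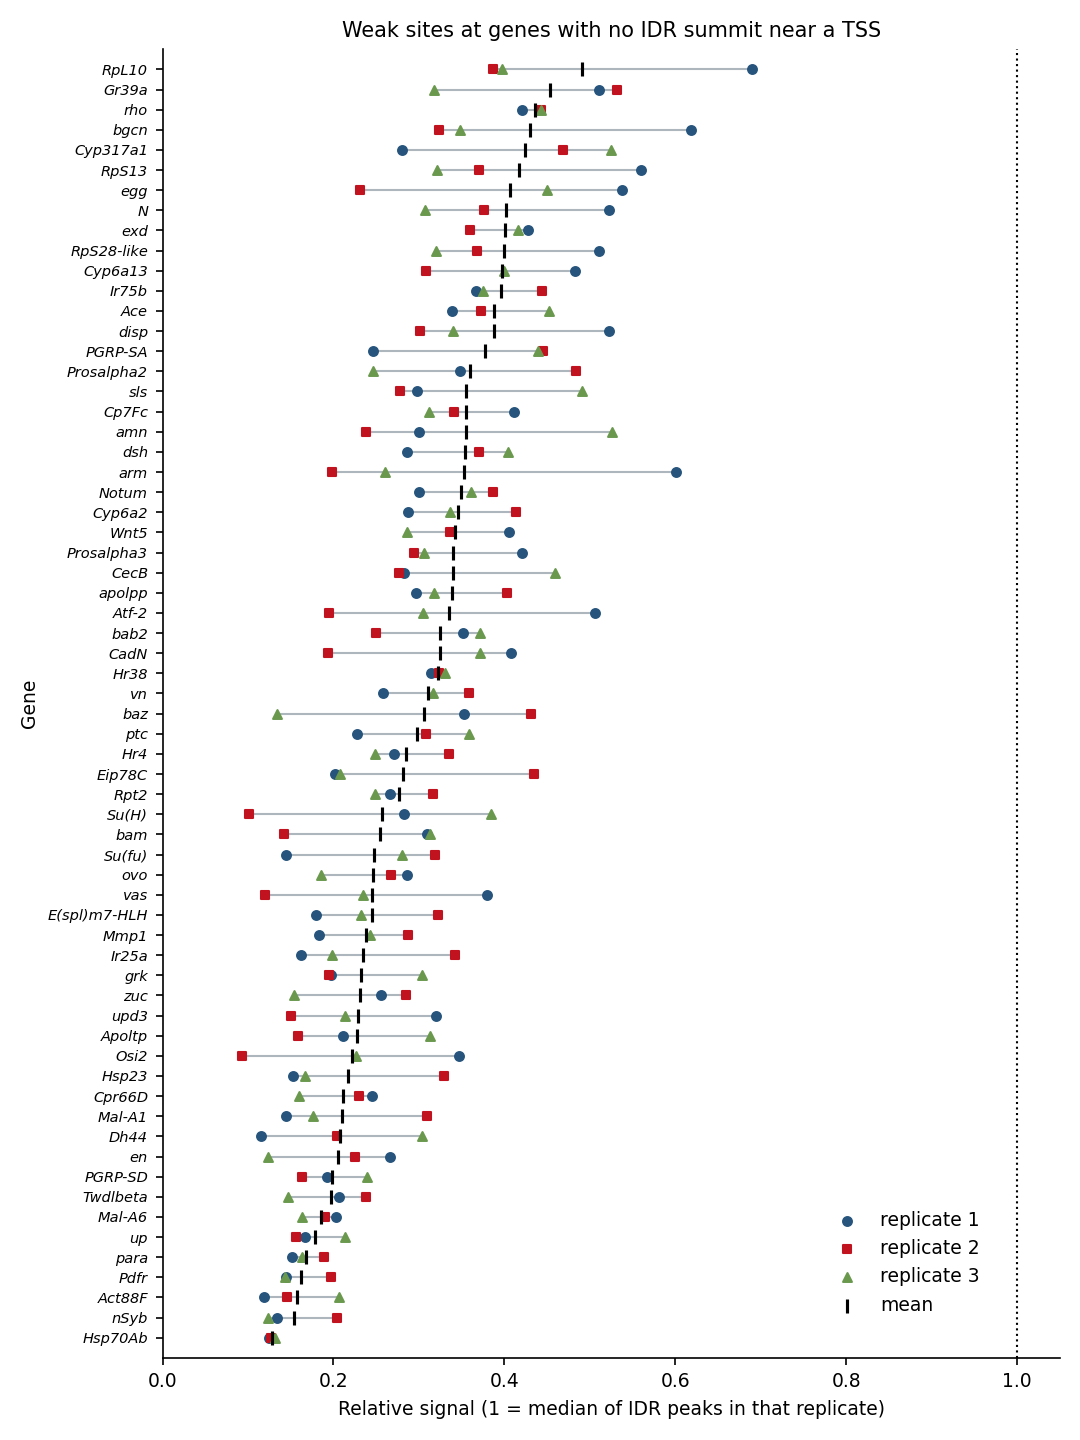
Relative signal (x axis; 1, the dotted line, is the median of IDR peaks in that replicate) at the 64 weak sites named for the gene lists that have a summit in all 3 replicate lists, ordered by mean (y axis, gene). Circles, squares and triangles are replicates 1, 2 and 3 and the bar is the mean. Every value lies between 0.0927 and 0.689, under 1, which the selection on pooled signal in large part builds in.

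At the gonad genes Traffic jam is best known for, weak sites stood beside IDR peaks. The tj gene held 0 weak summits and 3 IDR summits between its start and end, and 16 of each lay within 20 kb. Of those 16 weak sites 6 were in all 3 lists. The strongest, at chr2L:19482450-19482953, lay in the 3′ UTR of CG10195, not of tj, with relative signals of 0.223, 0.392 and 0.442. The tj-cluster sequence shown above gave 0.14, 0.14 and 0.332, highest in replicate 3. In piwi, the Argonaute gene of the pathway, 1 weak site lay in an intron at chr2L:10986212-10986404, with 0.604, 0.363 and 0.473 (mean 0.48 ± 0.121), 559 bp from an IDR region. The body of fs(1)Yb held none.

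Fas3, which encodes a septate junction adhesion protein, held 22 weak sites and 13 IDR summits over 73.3 kb. Fas2, an adhesion gene of the follicle cells, held 15 and 9 over 73.2 kb. The strongest weak site of Fas2 was intronic (chrX:4203648-4204151), at 0.393, 0.341 and 0.423, while that of Fas3 had summits in replicates 1 and 3 alone. CadN held 10 weak sites over 131.3 kb, 5 of them in all 3 lists, against 3 IDR summits. The E-cadherin gene shg held 1, in the list of replicate 2 alone, on chromosome 2R. The piRNA cluster flam held 2 over 158.8 kb, both in replicates 2 and 3 and neither in replicate 1. For their lengths, CadN and flam held fewer weak sites than the 1.21 per 10 kb of the 6 arms, and Fas3 and Fas2 more. The count at flam is uncertain, since the treatment of reads that map to several places is unknown.

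Some long genes held many weak sites. In all, 4066 coding genes held at least 1 between gene start and end, 2268 of these held no IDR summit, and 271 held 10 or more. The counts were highest in mamo, a germline zinc finger gene (51 weak sites and 19 IDR summits over 144.4 kb), bun (39 and 32), Svil (38 and 30), osp (38 and 12) and mgl, which encodes a lipoprotein receptor (37 and 11). Glut4EF and CG46467, which overlap and share their sites, held 36 each, as did the ecdysone-induced gene Eip75B and Prosap, and Snoo held 34. Per 10 kb these 10 genes held 2.61 to 4.48, beside 1.21 over the 6 arms. They were picked for the highest counts, so a density above that of the arms is partly built in. Long genes as a class were not compared with the arms. Only 7 genes had 10 or more weak sites and no IDR summit. They were led by hth, the homeodomain partner of exd (18, of which 7 in all 3 lists), the potassium channel gene Sh (13), bab2 (12), vir-1 (12) and the complexin gene cpx (11). Per 10 kb, hth held 1.36, close to the 1.21 of the arms, and Sh 0.936, below it. The densities of bab2, vir-1 and cpx were 3.26, 5.95 and 4.51. At hth and bab2, both in the gonad soma list, all sites in the gene body were thus under the IDR threshold.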

How the data were processed

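Each list was assigned to its replicate by the recorded sample. Per the files' accompanying descriptions, the authors derived each replicate list from that replicate's alignments and a control alignment, and the IDR list from the replicate and pooled lists. For the aligner, the peak caller and the IDR threshold, no statement was found in the sources used here. Peak signal was deposited as an enrichment value of the caller. The q-value was deposited on the −log10 scale. Columns left unmapped to a sample or pool numbered 0.

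Members and gene lists were chosen with earlier results of these data known. Analyses used dm6 and its 6 main arms, with sequence from NCBI Release 6 and genes from Ensembl release 115 (BDGP 6.54). Summits matched within 200 bp. Position classes were taken in order: promoter (500 bp or less from a TSS), 5′ UTR, protein-coding sequence, then the 3′ UTR, exons of non-coding genes, introns and, failing these, intergenic. Genes were assigned within 1000 bp of a TSS. Relative signal is the strongest replicate summit within 200 bp over that replicate's IDR median, so neighbouring sites can share a value.

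Named sites were the 10 with the highest pooled signal (the first 5 are printed) and the 10 with the highest mean relative signal, the 10 genes with most sites, sites at tj, flam, piwi, fs(1)Yb, CadN, shg, Fas2 and Fas3, and up to 3 genes per list by mean relative signal. The 5 strongest weak sites and 5 weakest IDR peaks mark the threshold. Other listed genes are named to complete counts and were chosen after their values were seen, as were hth and the other genes with no IDR summit. Sequences chosen by rank at fray, fru, sqd and Prp16 are not printed. Some or all of their replicate signal came from adjoining IDR regions. A further sequence chosen by rank is not reported here. Of 448 symbols written in 32 lists, 9 matched by an older symbol and 3 (nos, Dl and phm) are not analysed here. Helper functions were checked on simulated intervals. Alternatives changed matching distance, promoter and gene windows, IDR width, motif window, build and replicates left out. The tools were pandas 2.3.3, NumPy 2.4.6 and SciPy 1.17.1 in Python 3.11.15, with Matplotlib 3.10.9 for plots.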

Additional observations from a re-analysis of the deposited data

How the results depend on the processing

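The number of weak sites stayed within 1.5 times of 16253 under every alternative run: 17411 by summit alone, 14669 with IDR regions widened by 500 bp and 16579 on dm3. The share in all 3 replicate lists was 27.9% at 100 bp, 58.2% at 500 bp and 0.0308% against the strongest replicate peaks alone, which is nearly fixed by the rule. With 1 replicate left out, a summit in both others was found at 52.4% to 54.7%. Sites in no list were 6.13% at 100 bp, 1.48% at 500 bp and 7.14% to 11.0% with a replicate left out. For windows of 250 and 1000 bp the promoter share was 21.7% and 40.5%, the intron share 50.6% and 41.6%, and the intergenic share 14.3% and 9.94%. For sites in all 3 lists and for the stronger 50% these shares were 32.7% and 35.6%, 48.4% and 46.0%, and 11.6% and 11.1%. IDR regions lay within 500 bp of 2.69% and within 2000 bp of 38.1%. The Maf core was in 2.46% of sites within 50 bp, and in 4.46% of sites in all 3 lists. Genes with a weak site alone numbered 1716 for sites in all 3 lists, and 2010 to 2159 for sites in both lists with 1 replicate left out. The promoter difference between replicate peaks outside and inside IDR regions ran from −20.1 to −15.9 percentage points over its alternatives. Unknown read depth limits every statement about weak peaks, and the causes of these shifts beyond the narrower or wider windows were not tested.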

Other observations

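Weak sites were scarce in repeats. Transposable elements held 73 of the 16253 summits (0.449%), beside 5.93% of the bases of the 6 arms and 0.197% of IDR peaks, and 487 sites (3.00%) had over 50% of their 201-bp window soft-masked, beside 20.1% of the bases of the arms. No source used here says how reads that map to several places were treated. Median GC content was 42.3% at weak sites, 41.3% at IDR peaks and 42.2% over the arms. The E-box CACGTG was in 2.94% of weak sites and 2.49% of their flanks, and the Zelda element CAGGTAG in 1.00% and 1.10%. On dm3, 16579 of 30000 pooled peaks (55.3%) overlapped no IDR region, and 0 of them reached the weakest dm3 IDR signal of 219.7.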
